A study of Drosophila melanogaster with 2 samples.

Results

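The 42 genes described here encode subunits of the Polycomb complexes, the trithorax group and the ATP-dependent chromatin remodellers of Drosophila melanogaster. They are 42 of the 13945 protein-coding genes annotated on 6 chromosome arms. They were taken by name, from a list drawn up with earlier results of these data known. By class, 19 are Polycomb genes, 8 encode subunits of the Brahma complexes, 8 are trithorax genes or writers and erasers of trithorax-type histone marks, and 7 encode other remodellers. The question asked of each gene was whether CG18011, a zinc finger protein, had a chromatin immunoprecipitation (ChIP) peak at its start sites.

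Sonicated chromatin of whole embryos was immunoprecipitated through the GFP tag. The embryos came from 1 transgenic line that stably expresses CG18011 with GFP at its C terminus, they were 0 to 24 h old, and males and females were pooled. Both libraries, biological replicates 1 and 2, belong to this single group, and no control library was analysed here. A whole-embryo pool mixes all tissues and stages, so a site bound in few cells and a site bound weakly in many cannot be told apart. The line carries a tagged transgene of CG18011, and the CG18011 locus held the strongest peak of the genome.

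The irreproducible discovery rate (IDR) is a measure of agreement between replicates, and IDR peaks are those of the list thresholded on it. A gene was called bound when the summit of an IDR peak lay within 500 bp of at least 1 of its start sites. Signals in the IDR list, in the peak caller's own units, began at 178.9. As a set, its peaks were the same as the equally many strongest peaks of the pooled list of both libraries. Being bound thus meant passing a cut on signal in the pooled list, and did not require a peak in each library. That pooled list, made before any threshold on replicates, was used for genes that were not bound. Where a value per library is given, it is a relative signal, the signal of the library's strongest peak over the IDR summit divided by a median. That median is over the IDR summits covered by a peak of the same library, 64.6 in replicate 1 and 222.8 in replicate 2. A relative signal of 1 is therefore a typical IDR peak among those the library covers. The sources used here do not state the read depth, and a peak's signal therefore carries no counting interval.

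Polycomb complexes keep developmental genes silent. Polycomb repressive complex 2 (PRC2) methylates lysine 27 of histone H3, Polycomb repressive complex 1 (PRC1) compacts the marked chromatin and ubiquitinates histone H2A, the Pho repressive complex (PhoRC) reads Polycomb response elements in DNA, and the Polycomb deubiquitinase (PR-DUB) removes the mark from H2A. Trithorax proteins counter this silencing through methylation of lysine 4 of histone H3 or removal of the Polycomb mark, and remodellers such as Brahma, ISWI, Mi-2 and INO80 slide, eject or exchange nucleosomes with the energy of ATP.

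The sequences at several members' summits show how different these sites were, and they are given here before the values. Each window reaches up to 50 bp to either side of the summit, shortened where an untranslated region begins, and is written from the forward strand of dm6 in the RefSeq copy of that release 6 assembly. Capitals mark runs of at least 8 bases that hold only A and T. The first 4 lie at peaks with 2 to 5 times the signal of a typical IDR peak, and the other 5 at weaker peaks.
brm, upstream of the start site, chr3L:15982962-15983062: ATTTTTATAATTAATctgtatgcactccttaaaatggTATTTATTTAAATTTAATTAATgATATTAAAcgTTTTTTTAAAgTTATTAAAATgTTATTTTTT
ph-p, inside the gene near a second start site, chrX:2137269-2137369: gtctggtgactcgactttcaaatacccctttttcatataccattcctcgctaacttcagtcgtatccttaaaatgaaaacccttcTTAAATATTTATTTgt
osa, intron, stronger summit, chr3R:17704354-17704454: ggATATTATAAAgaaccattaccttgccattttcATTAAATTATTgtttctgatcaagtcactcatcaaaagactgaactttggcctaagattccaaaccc
osa, intron, weaker summit, chr3R:17700546-17700646: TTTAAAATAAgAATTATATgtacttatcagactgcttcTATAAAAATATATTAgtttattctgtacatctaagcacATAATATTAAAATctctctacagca
ash2, inside the gene near an internal start site, chr3R:24651047-24651147: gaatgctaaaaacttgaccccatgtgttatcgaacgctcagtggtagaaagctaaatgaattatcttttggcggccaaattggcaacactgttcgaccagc
Ino80, upstream of the start site, chr3R:19403329-19403429: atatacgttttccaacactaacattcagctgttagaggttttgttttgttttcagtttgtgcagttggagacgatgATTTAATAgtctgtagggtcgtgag
Sfmbt, upstream of the start site, chr2L:13176818-13176918: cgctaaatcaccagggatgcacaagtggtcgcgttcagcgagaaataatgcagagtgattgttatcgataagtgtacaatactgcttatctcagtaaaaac
Jarid2, upstream of the start site, chr3L:9476966-9477022: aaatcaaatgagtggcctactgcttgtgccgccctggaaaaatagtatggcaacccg
fs(1)h, upstream of the start site, chrX:8061577-8061644: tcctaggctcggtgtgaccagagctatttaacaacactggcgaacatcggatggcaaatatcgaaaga

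The window of brm held 6 such runs, the longest of 22 bases, and 86.1% of its bases were A or T. At osa the weaker summit had 4 runs and the stronger 2. Neither ash2, Sfmbt, Jarid2 nor fs(1)h had a run in the window shown. The Sfmbt window holds TATCGATA, the site of the replication-related factor DREF, and the fs(1)h window holds GTGTGACC, the reverse complement of the core promoter word GGTCACAC.

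Of the 42 genes, 15 were bound, a share of 35.7% (exact 95% binomial interval 21.6 to 52.0, Clopper-Pearson), against 17.9% of all protein-coding genes. The members were also more often on the pooled list: 36 of them had a pooled peak at a start site, 85.7%, against 53.6% of all protein-coding genes. Among genes with such a peak, 15 of 36 members were bound, 41.7%, against 33.4% of all. No test was made of these differences, since the genes were chosen with results known. The intervals cover counting error only, and neighbouring genes that share a peak are not independent.

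**Figure D1:**
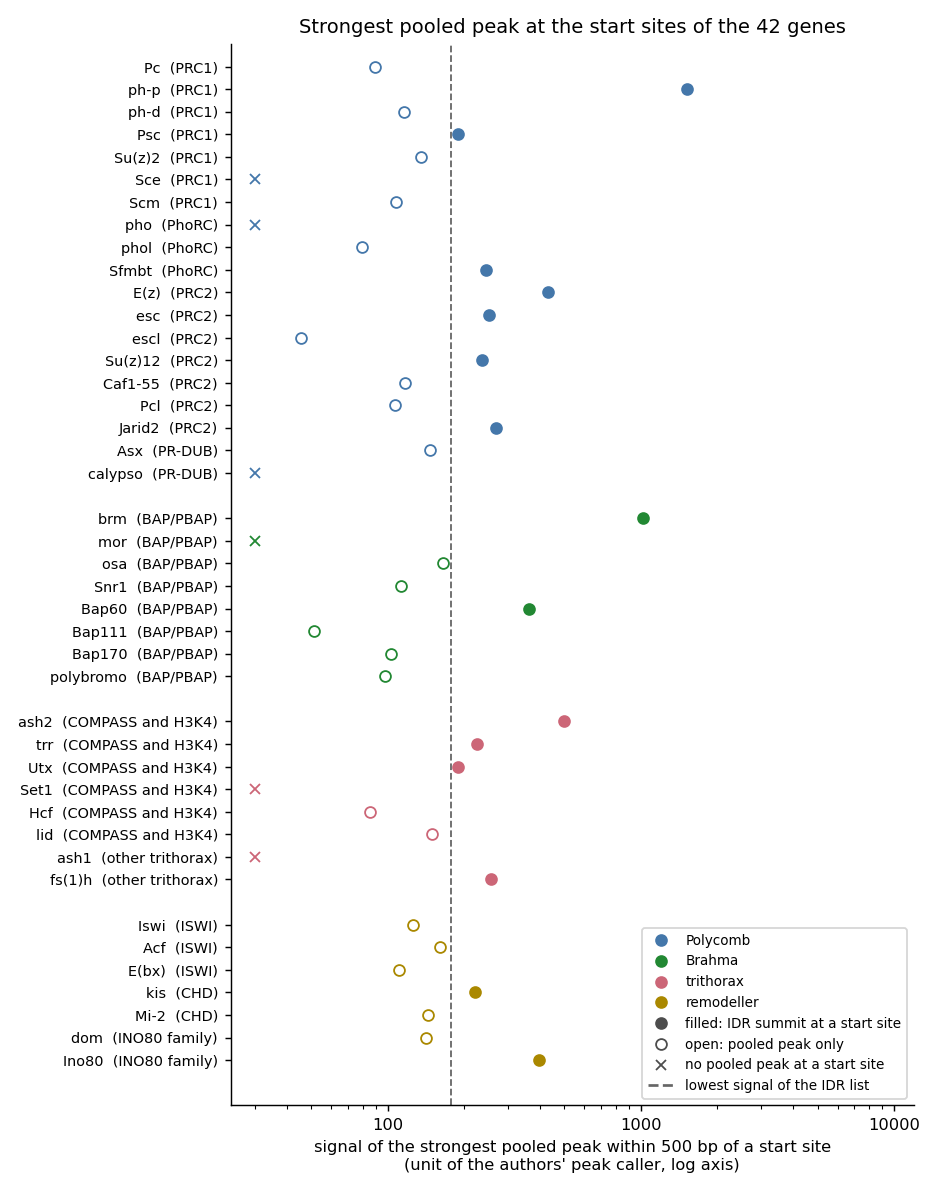
Signal of the strongest pooled peak within 500 bp of a start site of each of the 42 genes, on a log axis in the peak caller's own units, by class (colour) and complex. Filled points are the 15 bound genes, all to the right of the lowest IDR signal of 178.9 (dashed), open points the 21 with a weaker pooled peak, and crosses, set at an arbitrary place on the left, the 6 with none.

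Every class held bound genes. They were 7 of the 19 Polycomb genes (36.8%, exact interval 16.3 to 61.6), 2 of the 8 Brahma genes (25%, 3.19 to 65.1), 4 of the 8 trithorax genes (50%, 15.7 to 84.3) and 2 of the 7 other remodellers (28.6%, 3.67 to 71.0). The 4 intervals overlap widely, and each contains 17.9%, the share of all protein-coding genes. They describe counts in a chosen list, and no order of the classes was read at this number of genes. By complex, PRC2 had 4 of 7 bound, PRC1 2 of 7, PhoRC 1 of 3, the H3 lysine 4 methylation group 3 of 6, and the Brahma complexes 2 of 8. PR-DUB with 0 of 2 and the ISWI group with 0 of 3 had none, and the exact intervals of these counts reach up to 84.2% and 70.8%.

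Counts in the trithorax class rested on replicate 2. When the strongest peaks of replicate 1 alone, as many as the IDR list holds, stood in for that list, only ash2 of its 4 bound genes was called, and with those of replicate 2 alone all 4 were. Without replicate 2 the Polycomb class lost as many genes, Psc, esc and Jarid2, and gained ph-d, for a count of 5. The Brahma genes stayed at 2, brm and Bap60, and the remodellers gained Iswi, for a count of 3. Without replicate 2 the shares were thus 12.5% (trithorax), 26.3% (Polycomb), 25% (Brahma) and 42.9% (remodellers), against 17.1% of all protein-coding genes. Without replicate 1 the same genes as with the IDR list were bound in every class.

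Within PRC1 the polyhomeotic gene ph-p (FBgn0004861), whose protein polymerises through a SAM domain, had the strongest start-site peak of all 42 genes. The peak spanned 900 bp at X:2137496-2138395, with its summit 210 bp downstream of a start site in the 5' UTR, and its pooled signal of 1520 ranked 189 in the IDR list. Relative signal was 4.34 in replicate 1 and 5.70 in replicate 2, a mean of 5.02 ± 0.957 (SD, n = 2). A second IDR summit lay 464 bp upstream of another ph-p start site, in the intron whose sequence is shown above, with 4.82 in replicate 1 and 3.23 in replicate 2 (mean 4.02 ± 1.12, SD, n = 2). The last of its IDR summits, 1225 bp into the gene from its nearest start site, reached 1.04 in replicate 1 and 0.998 in replicate 2. No other protein-coding gene had a start site within 500 bp of any of these, the nearest being D2hgdh at 3328 bp from the first.

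The neighbouring copy ph-d, which encodes a closely related protein, was not bound. Its strongest pooled peak at a start site had a signal of 116.1, against 1520 at ph-p, and a relative signal of 0.731 in replicate 1 and 0.286 in replicate 2. An IDR peak with a signal of 422.7 lay 789 bp upstream of ph-d, beyond the 500 bp window, and ph-d was its nearest protein-coding start site. How reads from repeated sequence were placed is not stated, and its share was low at this pair. Of all 31-base words within 500 bp of their start sites, 4.60% at ph-p and 5.10% at ph-d occur more than once in the genome, against 0.566% at Mi-2 and 0 at the other 39 members.

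Psc, a PRC1 RING finger protein, was bound with a signal of 190.3 at 2R:12980473-12980888, its summit 23 bp upstream of a start site, in the 5' UTR of a longer transcript. The libraries differed: relative signal was 0.241 in replicate 1, where the peak ranked 15828, and 0.712 in replicate 2, where it ranked 2864. Its homologue and neighbour Su(z)2 was not bound, with 136.0 at its start site and an IDR peak of 215.5 lying 407 bp beyond the 3' end of the gene. The remaining PRC1 genes were not bound either. Pc, which encodes the chromodomain protein that reads the Polycomb mark, had a pooled peak of 89.1, Scm had 108.4, and Sce, the H2A ubiquitin ligase, had none.

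PhoRC was represented by Sfmbt, which encodes the partner of the DNA-binding subunit. The stronger summit, at 2L:13176766-13176904, lay 83 bp ahead of the start site and had a signal of 244.0 and a relative signal of 0.895 in replicate 1 and 0.894 in replicate 2. A second IDR summit 319 bp upstream reached 238.4, and both summits draw their value in replicate 1 from the same peak. CG43925 and CG5439 have start sites within 500 bp of the first summit, to which Sfmbt is nearer, while the second lies 46 bp from CG5439, which is the nearer there. The first summit, whose sequence is shown above, also lies in a coding exon of CG43925. Of the DNA-binding subunits themselves, phol had a pooled peak of 79.2 and pho, on chromosome 4, had none.

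In PRC2 the bound genes, 4 of 7, include that of the catalytic subunit. E(z), the H3 lysine 27 methyltransferase, was bound at 3L:10637951-10638194, with a signal of 431.8 and its summit 51 bp downstream of the start site. Relative signal was 2.12 in replicate 1 and 1.34 in replicate 2 (mean 1.73 ± 0.556, SD, n = 2), above a typical IDR peak in both. The neighbour Cnep1r2 starts 67 bp from the same summit.

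Su(z)12, which encodes a core subunit needed for PRC2 activity, had 0.924 in replicate 1 and 0.835 in replicate 2 at a summit 72 bp downstream of its start site, with a pooled signal of 237.1. The prefoldin gene Pfdn6 starts 281 bp from it. The WD-repeat gene esc was bound 57 bp upstream of its start site with a signal of 252.3, and its relative signal was 0.620 in replicate 1 and 0.979 in replicate 2. Only 46.5% of the bases within 50 bp of the esc summit were A or T, the lowest share among the 27 summits of members, and the summit lies in an intron of Pde1c.

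Jarid2, an accessory subunit, had a signal of 268.1, with 0.448 in replicate 1 and 1.07 in replicate 2. Its summit lay 66 bp upstream of Jarid2 and 7 bp from the start of the deubiquitinase gene Uch-L5, which is the nearer. The 3 PRC2 genes that were not bound were escl, Caf1-55 and Pcl. The esc copy escl had the weakest start-site peak of the 21 genes on the pooled list only, 45.5, against 252.3 at esc. Caf1-55, a histone chaperone of several complexes, had 117.1 and Pcl, an accessory subunit, had 107.5. Both had an IDR summit farther out, at 965 bp upstream of Caf1-55 and at 793 bp upstream of Pcl, where the summit lies 1 bp from a start of Hsf, the heat shock factor gene.

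In PR-DUB, Asx had a pooled peak of 146.8 and calypso, the deubiquitinase itself, had none within 500 bp. An IDR summit with a signal of 339.5 lay 553 bp upstream of calypso and 156 bp from a start of CG42837.

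**Figure D2:**
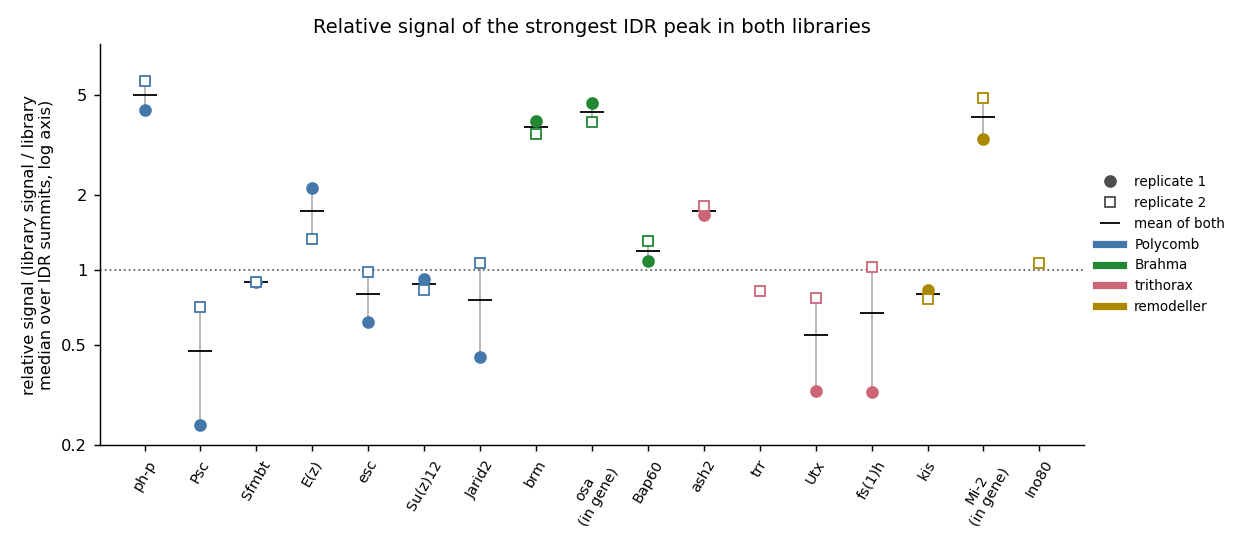
Relative signal of the strongest start-site IDR peak of the 15 bound genes and of the strongest in-gene IDR peak of osa and Mi-2, on a log axis, in replicate 1 (filled circles) and replicate 2 (open squares), with the mean as a bar and a dotted line at the typical IDR peak. Values of ph-p, brm, osa and Mi-2 lie above 3 in both libraries, and trr and Ino80 have no point for replicate 1, where no peak covered the summit.

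Among the Brahma genes the ATPase gene brm (FBgn0000212) had the strongest start-site peak. Its peak at 3L:15982843-15983181 had a signal of 1025 and ranked 270. Relative signal was 3.94 in replicate 1 and 3.48 in replicate 2, a mean of 3.71 ± 0.325 (SD, n = 2), so the libraries differed little. The summit lay 143 bp upstream of brm and 123 bp from the start of Arl1, a small GTPase gene that is slightly nearer.

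Bap60, which encodes a subunit of the same complexes, was the other bound gene of this class. It had 1.09 in replicate 1 and 1.30 in replicate 2 (mean 1.20 ± 0.150, SD, n = 2), with a pooled signal of 362.2 at X:13159446-13159861. The summit lay 146 bp upstream of Bap60 and 50 bp from a start of CG12096. Both Brahma peaks are therefore nearer to a neighbour. When a summit counted only for the nearest protein-coding start site, 0 of the 8 genes were left, against 13.2% of all protein-coding genes.

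The remaining Brahma subunits had weak or no start-site peaks. The PBAP subunits Bap170 and polybromo had pooled signals of 103.4 and 97.5, and the core subunits Snr1 and Bap111 had 113.2 and 51.0. The core subunit gene mor had no summit within 500 bp, yet it lies next to one of the strongest peaks of the genome. That peak, at 3R:15972812-15974715 with a signal of 21269 and rank 26, has its summit 808 bp upstream of mor and 423 bp inside the remodeller gene Hel89B, and its interval covers the mor start site. Relative signal there was 59.5 in replicate 1 and 78.9 in replicate 2 (mean 69.2 ± 13.7, SD, n = 2).

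osa (FBgn0261885), the subunit that defines the BAP form of the complex, had its peaks far inside the gene. The gene spans 30533 bp and has 1 annotated start site, where the pooled peak reached 165.9, the strongest of any member that was not bound. The stronger IDR peak lay 13946 bp into the gene at 3R:17704237-17704586, in an intron of osa and an exon of the noncoding gene lncRNA:CR46035, with a signal of 1155 and rank 232. Relative signal was 4.67 in replicate 1 and 3.89 in replicate 2 (mean 4.28 ± 0.552, SD, n = 2). The weaker one, at 3R:17700377-17700769 and 17754 bp in, reached 3.18 in replicate 1 and 2.25 in replicate 2 (mean 2.71 ± 0.661, SD, n = 2), with a noncoding start site, that of lncRNA:CR46036, 145 bp away. Both summits of osa thus had 2 to 5 times the signal of a typical IDR peak in each library, and both lie beside annotated noncoding genes.

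Of the trithorax class, ash2 (FBgn0000139), a core subunit shared by the H3 lysine 4 methyltransferase complexes, had the strongest start-site peak. Relative signal was 1.66 in replicate 1 and 1.80 in replicate 2 (mean 1.73 ± 0.0979, SD, n = 2), with a pooled signal of 498.4 at 3R:24650992-24651225. The summit lay 83 bp upstream of an internal start site and in an intron of the longer transcripts. With the 5'-most start site of each gene alone, ash2 and Utx were no longer bound.

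The other 3 bound genes of the class had weaker peaks that came mainly from replicate 2. trr, the gene of an H3 lysine 4 methyltransferase, had a pooled signal of 224.6 and a relative signal of 0.825 in replicate 2, while replicate 1 had no peak over the summit. Utx, which encodes a demethylase that removes the Polycomb mark, had 0.328 in replicate 1, where the peak ranked 9127, and 0.772 in replicate 2. fs(1)h, a BET bromodomain gene, had 0.324 in replicate 1, where the peak ranked 9328, and 1.03 in replicate 2 at a summit 191 bp upstream of it.

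The summits of trr and fs(1)h were nearer to a neighbour, that of trr to mRpL16 at 134 bp and that of fs(1)h to the integrin gene mys at 18 bp. fs(1)h held a second IDR summit in an intron, 800 bp from its nearest start site, and there the libraries were closer, at 0.818 in replicate 1 and 0.956 in replicate 2. The peak of Utx, at 190.6, and that of Psc, at 190.3, were the members just inside the IDR list, whose lowest signal was 178.9. Just outside lay osa at 165.9, Acf at 160.6 and the demethylase gene lid at 149.9.

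Hcf, on chromosome 4, had a pooled peak of 85.6, and Set1, the gene of the main H3 lysine 4 methyltransferase, had none. ash1, which encodes a methyltransferase of lysine 36 of histone H3, had no pooled peak at its start site either. A strong IDR peak lay at its other end, 156 bp beyond the 3' end of the gene at 3L:19590434-19590816, with a signal of 2538 and rank 162. Relative signal was 9.14 in replicate 1 and 8.77 in replicate 2 (mean 8.95 ± 0.263, SD, n = 2), above every IDR summit at or in a member. The nearest protein-coding start site, that of CG14100, was 93 bp from the summit, so the peak counts for CG14100 and not for ash1.

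Among the other remodellers, kis and Ino80 were bound. kis, the gene of a CHD-type ATPase of the trithorax group, had a signal of 220.9 at a summit 262 bp upstream, within the 3' UTR of Rpp30. Relative signal was 0.835 in replicate 1 and 0.764 in replicate 2 (mean 0.800 ± 0.0499, SD, n = 2). A stronger IDR peak of 357.6 lay inside kis, in an exon of lncRNA:CR44222 and 1602 bp upstream of an internal kis start site. It had 1.50 in replicate 1 and 1.16 in replicate 2. Another of 185.0 lay 2902 bp from the nearest kis start site.

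Ino80, the ATPase gene of the INO80 complex, had a pooled signal of 397.6 at a summit 226 bp upstream. Replicate 2 had a relative signal of 1.07 there. Replicate 1 had no peak over that summit, but its own peak 118 bp away, 108 bp upstream of Ino80, had a relative signal of 2.44 and ranked 433, so Ino80 was also bound with replicate 1 alone. The DNA repair gene Aptx starts 76 bp from it and is nearer. With a window of 200 bp, neither kis nor Ino80 was bound.

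Mi-2 (FBgn0262519), the ATPase gene of the NuRD complex, had no IDR summit at a start site but held 4 inside the gene, more than any other member. The strongest, at 3L:19897030-19897597 with a signal of 1302 and rank 208, had 3.35 in replicate 1 and 4.85 in replicate 2 (mean 4.10 ± 1.06, SD, n = 2). It lies in an intron of Mi-2 and in the 5' UTR of Su(Tpl), an elongation factor gene that overlaps Mi-2. A weaker summit in the same interval, with a signal of 499.6, had 1.36 in replicate 1, and its value in replicate 2 is that of the stronger summit, so no mean is given for it. The other summits had 2.25 and 0.585 in replicate 1 and 1.45 and 0.926 in replicate 2, with pooled signals of 461.9 and 232.1. At the Mi-2 start site the pooled peak reached only 144.4.

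**Figure D3:**
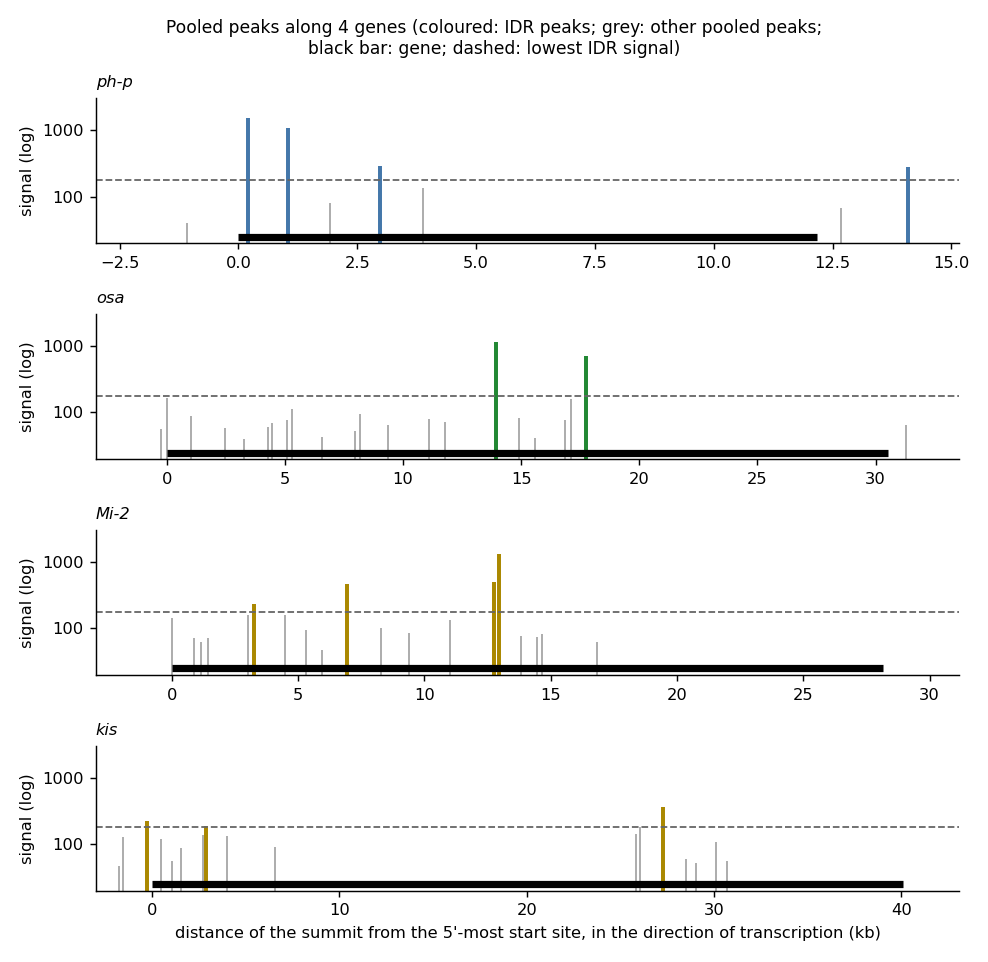
Signal of pooled peaks (vertical lines, log axis, peak caller's units) along ph-p, osa, Mi-2 and kis against the distance in kb of each summit from the 5'-most start site, with IDR peaks coloured, other pooled peaks in grey, the gene as a black bar and the lowest IDR signal dashed. The strongest peak of ph-p lies at its start, while those of osa, Mi-2 and kis lie more than 10 kb into the gene. That of kis is 1602 bp from an internal kis start site.

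The ISWI group was not bound. The ATPase gene Iswi had a pooled signal of 126.2, Acf had 160.6 and E(bx), which encodes the largest subunit of NURF, had 111.4. Replicate 1 placed Iswi higher, with a relative signal of 0.696, against 0.347 in replicate 2. The ATPase gene dom, of the complex that exchanges histone H2A variants, had 141.4.

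Counted over all members, 10 held an IDR summit inside the gene, 23.8%, against 9.99% of all protein-coding genes. These were ph-p, Psc, E(z), Su(z)12, osa, ash2, Utx, fs(1)h, kis and Mi-2, and in 6 of them, all but osa, fs(1)h, kis and Mi-2, the strongest such summit was one at a start site. Among genes with no IDR summit at a start site, osa and Mi-2 were 2 of 27 members, 7.41%, against 4.45% of all. The members are long, with a median of 7348.5 bp against 2166 bp for all protein-coding genes, and the part of length in this count was not tested. Together 17 of the 42 genes held 27 IDR summits, 17 of these at start sites and 10 inside genes away from them.

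The 15 bound genes did not form a single kind of site. The median IDR signal of their strongest peaks was 255.7, against 302.0 for the other bound genes, and ph-p and brm were the 2 whose peak was among the strongest 10% of the IDR list, 13.3%, against 10.1% of all bound genes. Summits lay upstream of the start site in 11 genes and downstream in 4, at a median of 143 bp, against 130 bp for other bound genes. In 9 of the 15, 60%, another protein-coding gene had a start site within 500 bp of the summit, against 58.2% of all bound genes, and in 6 of those 9 the neighbour was the nearer. The other 9 of the 15 were themselves nearest to an IDR summit, against 1842 of the 2494 bound genes. The share of upstream summits among all bound genes was not counted. The 6 genes with a summit to themselves were ph-p, Psc, esc, ash2, Utx and kis.

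Support from both libraries was uneven. Each library's strongest peaks, as many as the IDR list holds, were set against the summits. All 15 were covered by them in replicate 2 and 8 in replicate 1, so that 53.3% were among the strongest of both, against 75.7% of all bound genes. The 8 were ph-p, Sfmbt, E(z), Su(z)12, brm, Bap60, ash2 and kis. Of the other 7, Psc, esc, Jarid2, Utx and fs(1)h had a weaker peak in replicate 1, and trr and Ino80 had none over the summit. Ino80 had a strong one beside it, given above, while trr had 0 peaks of replicate 1 within 500 bp of its start site. For comparison, 80.0% of all bound genes were among the strongest of replicate 1 and 94.7% among those of replicate 2.

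**Figure D4:**
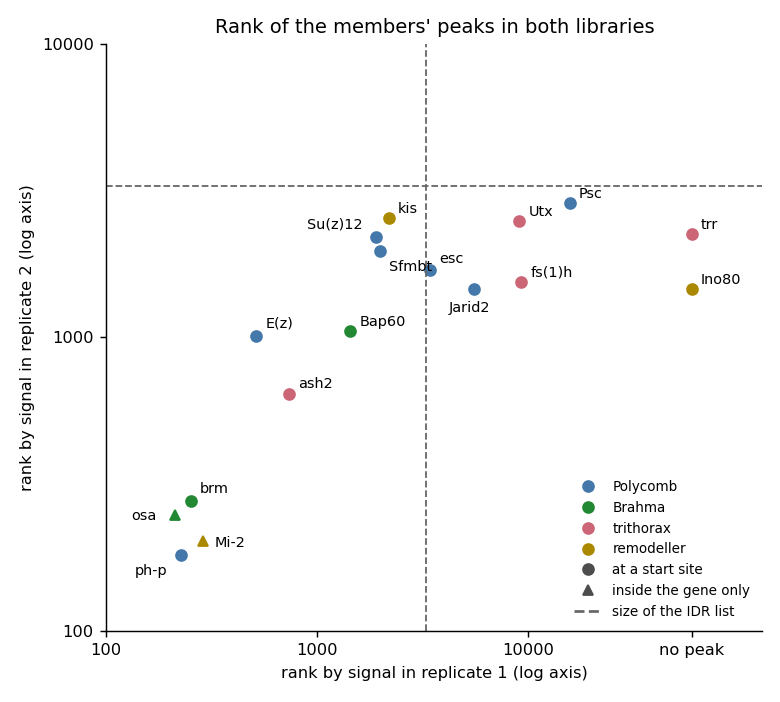
Rank by signal of the peak over the IDR summit in replicate 1 (x, log axis, with genes lacking a peak over the summit at the right) and in replicate 2 (y, log axis) for the 15 bound genes (circles) and for osa and Mi-2 (triangles), coloured by class, with dashed lines at the rank equal to the size of the IDR list. The 4 strongest genes and 6 others lie left of the vertical line, and 7 genes lie right of it.

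The 21 genes with a pooled peak but no IDR summit at a start site had signals from 45.5 at escl to 165.9 at osa, with a median of 113.2, against 90.5 for the 4961 other such protein-coding genes. Their ranks in the pooled list ran from 3680 to 24792. In 8 of the 21, peaks of both libraries covered the summit. Among equally long lists of the strongest peaks, that of replicate 2 held none of them, while that of replicate 1 held ph-d and Iswi. The 6 genes with no pooled peak at a start site were Sce, pho, calypso, mor, Set1 and ash1.

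In 3 of 4 pairs of related genes only 1 was bound. These were ph-p, Psc and esc, set against ph-d, Su(z)2 and escl, while of pho and phol neither was bound. How often pairs of related genes split among all genes was not counted. The signals of Psc and Su(z)2, 190.3 and 136.0, lay on either side of the lowest IDR signal of 178.9. Their relative signals in replicate 2 were 0.712 and 0.618. The split also rested on the list used. With the strongest peaks of replicate 1 alone, ph-p and ph-d were both bound and Psc and esc were not, which leaves 0 of 4 pairs split, and with a window of 1000 bp ph-d was bound as well.

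The sequence at the members' start-site summits was mixed. Within 50 bp of the 17 summits the median share of A and T was 58.4%, from 46.5% at esc to 86.1% at brm, against 63.4% at the other 1928 IDR summits at start sites. The flanks 1000 bp away had a median of 54.0% at the members. The 10 summits inside members had a median of 66.3% (60.4 to 77.2), against 65.3% at the other IDR summits away from start sites. The window of brm and that of the weaker osa summit, both shown above, had the highest share in their group, while the stronger osa summit, at 66.3%, was at the median.

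**Figure D5:**
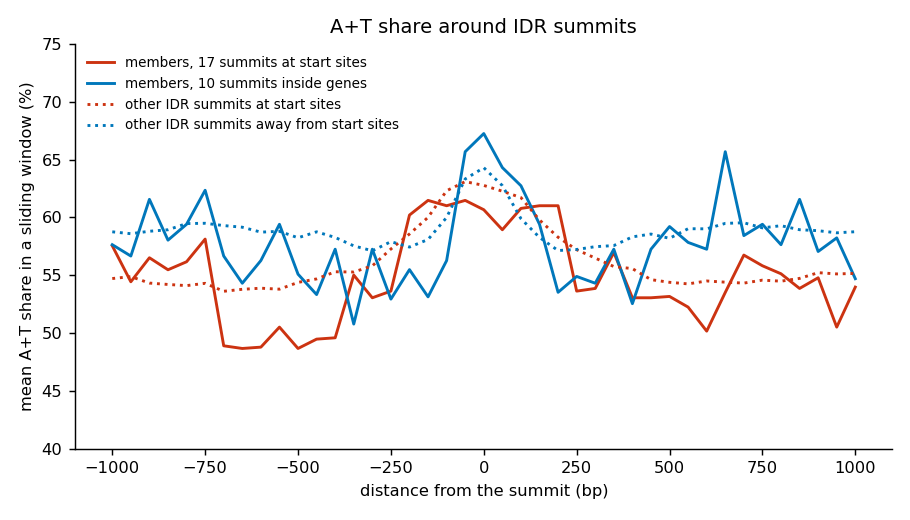
Mean share of A and T in percent, in windows of 51 bp, against the distance in bp from the summit for the members' 17 start-site summits and 10 in-gene summits (solid lines) and for the other IDR summits (dotted lines). The share at the centre was 60.7% for the members' start-site summits, against 62.8% for the others, and 67.3% for the members' in-gene summits, against 64.3% for the others.

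Short words of known factors were looked for on both strands within 100 bp of the 17 start-site summits. TATCGATA (DREF) was found at 1, that of Sfmbt shown above, 5.88%, against 8.51% of the other start-site summits. The word of the GAGA factor, GAGAG, was found at 2, Psc and E(z), 11.8%, against 21.5%. TATAAA, the core promoter word bound by TBP, was found at 4, 23.5%, against 34.3%. GCCAT, the core of the Pho site, was found at 5, 29.4%, against 28.7%, and these were summits of ph-p, Jarid2, trr, Utx and fs(1)h.

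GGTCACAC was found at 2 summits, esc and fs(1)h, 11.8%, against 4.62%, and CAGCTG at 2, ash2 and Ino80, 11.8%, against 15.2%. GAGTG (zeste) was found at 7, 41.2%, against 25.1%. These were both summits of Sfmbt and those of Jarid2, brm, ash2, trr and Utx. With 17 summits, 1 summit more or less moves each of these shares by 5.88 percentage points. GAGAG and GAGTG share letters and can overlap.

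The last words searched came from the data rather than from known factors. ATTTAAAA, the word of 8 bases in largest excess at IDR summits of other genes over their flanks, was found at 0 of the members' 17 start-site summits, against 231 of the 1928 others, and at 1 of the 10 inside members, at osa. AGCTTTTG, the word in largest excess at the strongest 10% of IDR peaks, was found at 0 of 17 and 0 of 10, against 3.37% of the other start-site summits and 16.7% of 324 summits of the strongest peaks. A missing word says only that these letters are not in the window.

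Partners of these proteins were looked at in the same way, as 60 further genes of the same complexes and their co-regulators. Of them 16 were bound, 26.7%, beside 35.7% of the members and 17.9% of all protein-coding genes. A pooled peak at a start site was found for 58 of the 60, against 53.6% of all protein-coding genes. Among genes with such a peak, 27.6% of the partners were bound, below the 33.4% of all. The 3 strongest peaks of the partners were far above those of the members. The remodeller gene Hel89B, whose peak also covers the mor start, had a mean relative signal of 69.2 ± 13.7, lolal, a BTB gene of the Polycomb response elements, 53.7 ± 7.91, and trx, the H3 lysine 4 methyltransferase gene that gives the trithorax group its name, 46.5 ± 6.66 (SD, n = 2 each). The other bound partners were closer to the members: Gas41 had 1.64 ± 0.0419, the GAGA factor gene Trl 1.53 ± 0.145 and the remodeller gene Chd1 1.26 ± 0.0358 (SD, n = 2 each). Of the 16 bound partners, 13 were among the strongest of both libraries, as were 8 of the 15 bound members. Among all bound protein-coding genes the share was 75.7%.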

How the data were processed

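ChIP-seq peaks of CG18011-GFP embryos were deposited as narrowPeak lists on dm6: 1 per library, 1 of the pooled libraries before any threshold on replicates, and an optimal IDR list. The authors deposited a signal per peak, and per the text deposited with the libraries the peaks derive from alignments and a control. The sources used here do not name the peak caller, the IDR threshold, the depth scaling or the read depth. The labels' antibody field names CG18011, while their description names GFP.

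Start sites were those of all transcripts in Ensembl release 115 (BDGP 6.54). Sequence came from the RefSeq release 6 genome. Of the members, 40 matched by symbol and 2 by synonym. Peaks outside arms 2L, 2R, 3L, 3R, 4 and X were left out, 1 of them in the pooled list and 1 in that of replicate 2. Steps ran in Python 3.11.15 with pandas 2.3.3 and scipy 1.17.1, and gene assignment and word search were tested on simulated data.

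Members, partners, words and alternatives were chosen with earlier results of these data known, so no list was tested. The strongest 10% of peaks, the nearest-start count and peaks beyond the window or past gene ends were added later. Nothing states separate embryo collections, so spread between the 2 libraries may be technical.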

Additional observations from a re-analysis of the deposited data

How the results depend on the processing

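The count of 15 bound members, 35.7%, stood against 17.9% of all protein-coding genes in the main setting. It was 12 with a window of 200 bp, 28.6% against 13%, and 20 with 1000 bp, 47.6% against 20.5%. It was 13 with the 5'-most start site of each gene, 31% against 16%. Where the peak interval had to cover the start site it was 14, 33.3% against 11.7%. It was 6 among the 1645 strongest IDR peaks, 14.3% against 9.97%. When a summit counted only for the nearest start site, an alternative chosen after seeing the data, it was 9, 21.4% against 13.2%. Without 1 replicate it lay between 11 and 15, with 26.2% against 17.1% without replicate 2 and 35.7% against 18% without replicate 1. The 11 without replicate 2 share 9 genes with the main count. Psc, esc, Jarid2, trr, Utx and fs(1)h were lost and ph-d and Iswi gained. For the classes, the 1645 strongest gave 2 Polycomb (10.5%), 1 trithorax (12.5%) and 1 remodeller gene (14.3%), against 9.97% of all protein-coding genes. A window of 1000 bp gave 11 Polycomb genes, 57.9% against 20.5%. The 5'-most start gave 2 trithorax genes, 25% against 16%, and a window of 200 bp gave 0 remodellers, against 13%. The interval over the start site gave 1 remodeller, 14.3% against 11.7%. The nearest start gave 0 Brahma, 2 trithorax (25%) and 1 remodeller gene (14.3%), against 13.2%. Without 1 replicate the trithorax count lay between 1, 12.5% against 17.1%, and 4, 50% against 18%. Members with an IDR summit in the gene numbered 19 where any overlap counted, 45.2% against 18.3%, and 6 with the 1645 strongest, 14.3% against 5.42%. They numbered 10 without replicate 1, 23.8% against 10.1%, and 11 without replicate 2, 26.2% against 9.67%. Replicate 1 alone lost Psc and Utx and gained ph-d, Su(z)2 and Iswi. Bound partners numbered 10 with 200 bp, 16.7% against 13%, and 8 with the 1645 strongest, 13.3% against 9.97%. By nearest start they numbered 9, 15% against 13.2%. The relative signals of 15 genes with a peak in both libraries were the same when the nearest library summit was used. Leaving out 1 of 2 replicates gives the other library's value. Relative to their mean these values differed most at Psc, 0.241 and 0.712, and fs(1)h, 0.324 and 1.03. By plain difference they differed most at Mi-2, 3.35 and 4.85, and ph-p, 4.34 and 5.70. Dividing by the library's median over all its own peaks, not IDR summits, raised all 15, since it changes the scale. The depth behind each peak is unknown.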
